A study of Mus musculus with 230 samples.

Results

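The 7 genes described here encode channels that open on mechanical force or on acid in sensory neurons: Piezo1, Piezo2 and Tmem63b, which are gated by membrane tension, and Asic1, Asic2, Asic3 and Asic4, which belong to the acid-sensing ion channel (ASIC) family. They were taken by name from the 53278 gene rows of a deposited count table. The rule used names only, but it was set with earlier results of these data known. The neurons came from L4 and L5 dorsal root ganglia of C57BL/6 X CAST/Ei mice of several ages, with sciatic nerve injury or in the intact condition. They were isolated one by one by hand, and the RNA of the cytoplasm was read by SMART-seq2.

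PIEZO proteins are very large trimeric cation channels that convert membrane stretch or indentation into current. Piezo2 is the principal transducer of light touch and of limb position in dorsal root ganglion neurons, whereas Piezo1 is best known from endothelial and red blood cells. ASIC subunits assemble as trimers of like or mixed subunits that pass sodium when the extracellular pH falls, and Asic3 is the form most associated with pain from muscle and with acidosis in sensory neurons.

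The low-input libraries formed 6 groups of 3, namely intact and injured neurons at 1, 8 and 12 months of age. All 6 groups share the cross of strains and the cell isolation, and the labels give no sex, no interval since surgery, no number of neurons per library and no animal, so p-values measure the spread between libraries, which may be partly technical. The group called 12 months here carries 1 year in part of its labels. Single neurons were sequenced at 1 month (21 from the injured, 18 from the intact condition) and at 1 year (22 and 8). The low-input libraries held 7531967 to 19443627 endogenous fragment counts, of which 770328 to 11587094 lay outside a single dominant feature, CT010467.1. One library stood apart, intact replicate 2 at 12 months, which had the fewest counts outside that feature. Of those counts 40.5% were mitochondrial, against 1.19% to 3.55% in the other libraries. All 8 general neuron markers (Tubb3, Rbfox3, Uchl1, Snap25, Prph, Isl1, Avil and Pou4f1) had counts in every library. Levels are in CPM, counts per 1000000 of the library size scaled by TMM, edgeR's trimmed mean scaling. The summed level of 6 genes of the axotomy response (Atf3, Sprr1a, Gal, Npy, Nts and Ecel1) ran from 554 to 3142 CPM with injury and from 3.19 to 20.7 CPM without, so the ranges did not overlap.

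Piezo2 (GRCm38 chromosome 18, 63010213 to 63387183) was the most abundant of the 7 genes by CPM. At 1 month the intact replicates had 240.3, 167 and 349 CPM and the injured ones 224, 201 and 189. At 8 months the intact values were 122, 629 and 315 CPM and the injured values 400, 264 and 213. At 12 months the intact values were 121, 345 and 46.9 CPM and the injured values 194, 183 and 209.9. The injured range lay inside the intact range at every age. The injured libraries varied less: the coefficient of variation over 9 libraries was 0.293 in injured and 0.678 in intact neurons, a difference that was not tested. The 345 CPM of the second intact 12-month replicate came from the library that stood apart.

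Piezo1 (chromosome 8, 122481698 to 122551329) was close to absent. It had 0 to 15 counts per library, 70 in all 18 libraries together, and 6 libraries had none. Its highest level, 1.02 CPM, was in injured replicate 3 at 8 months. It did not pass the filter on low counts and was not tested. Of its exon bases 24.57% overlap Ctu2 on the opposite strand, and the counting did not use strand, so even these few counts are uncertain.

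Tmem63b (chromosome 17, 45660171 to 45686905) encodes a member of the OSCA/TMEM63 family of stretch-activated channels. It was the steadiest of the tested members. At 1 month the intact libraries had 88.1, 108 and 104 CPM and the injured ones 90.2, 119.6 and 97.0. At 8 months the values were 142, 97.5 and 63.1 CPM in intact and 76.7, 109 and 116 CPM in injured ones. At 12 months the values were 90.6, 70.4 and 33.7 CPM without and 73.5, 70.01 and 74.6 CPM with injury. Intact and injured values overlapped at each age, and the 3 injured 12-month libraries had a mean of 72.7 ± 2.41 CPM (SD, n = 3). The within-group SD of log2 CPM was 0.42 for Tmem63b (percentile 16.4 of all 14212 genes tested), against a median of 0.81 over those genes.

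Asic1 (chromosome 15, 99670368 to 99701130) encodes the subunit most widespread in the nervous system. At 1 month it had 11.4, 31 and 21.97 CPM in intact and 17.5, 32.8 and 42.4 CPM in injured replicates. At 8 months it had 1.85, 12.2 and 28.5 CPM without and 0.463, 11.2 and 46.2 CPM with injury, and at 12 months 22.2, 7.22 and 0 CPM without and 7.97, 19.3 and 17.3 CPM with injury. Single libraries were near or at 0 in both conditions, and the 2 conditions overlapped at every age. The 7.22 CPM of intact replicate 2 at 12 months rest on 4 counts. Its within-group spread was among the widest of all genes, at percentile 98.6 with an SD of 2.23 on the log2 scale.

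Asic2 (chromosome 11, 80880169 to 81968457) encodes a subunit that is little gated by mild acid alone and changes the behaviour of channels it joins. The intact libraries had 15.2, 12.6 and 33.5 CPM at 1 month, 5.05, 47.9 and 43.6 CPM at 8 months and 11.1, 3.61 and 6.74 CPM at 12 months. The injured libraries had 12.6, 10.3 and 15.6 CPM at 1 month, 33.8, 10.5 and 16.5 CPM at 8 months and 8.22, 9.67 and 12.2 CPM at 12 months. The highest values were those of intact replicates 2 and 3 at 8 months, while replicate 1 of that group was below every injured library. The 3.61 CPM of intact replicate 2 at 12 months rest on 2 counts.

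Asic3 (chromosome 5, 24413392 to 24417835) had the widest spread between libraries on the log2 scale among the members tested. The intact libraries had 148, 36.6 and 5.36 CPM at 1 month, 210.2, 70.8 and 0.164 CPM at 8 months and 24.5, 1.81 and 4.56 CPM at 12 months. The injured libraries had 63.2, 123.5 and 97.4 CPM at 1 month, 84.2, 169 and 47.04 CPM at 8 months and 99.7, 39.1 and 79.9 CPM at 12 months. All 9 injured libraries were at 39.1 CPM or more, whereas 6 of the 9 intact libraries were below that. At 12 months the 3 injured values lay above the 3 intact ones, the only such separation among the 5 tested members at any age. Those intact values rest on 286, 1 and 21 counts, against 667 to 1588 counts in the injured libraries, so 2 of them are near the floor. At 12 months the conditions did not overlap for 25.9% of all genes tested, with the injured libraries higher for 19.2%. At 1 and 8 months, where 0 of the 5 members were free of overlap, the shares over all genes were 17.8% and 14.3%. Asic3's within-group spread was at percentile 99.2 (SD 2.45 on the log2 scale).

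Asic4 (chromosome 1, 75450436 to 75474343), whose product does not form an acid-gated channel by itself, was barely detected. It had 0 to 11 counts per library and 17 over all 18 libraries, and 11 libraries had none. All but 6 of the counts fell in intact replicate 3 at 1 month, which had 11. An overlap of 18.08% of its exon bases with Gm37264 on the opposite strand leaves these counts uncertain, and the gene did not pass the filter.

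**Figure D1:**
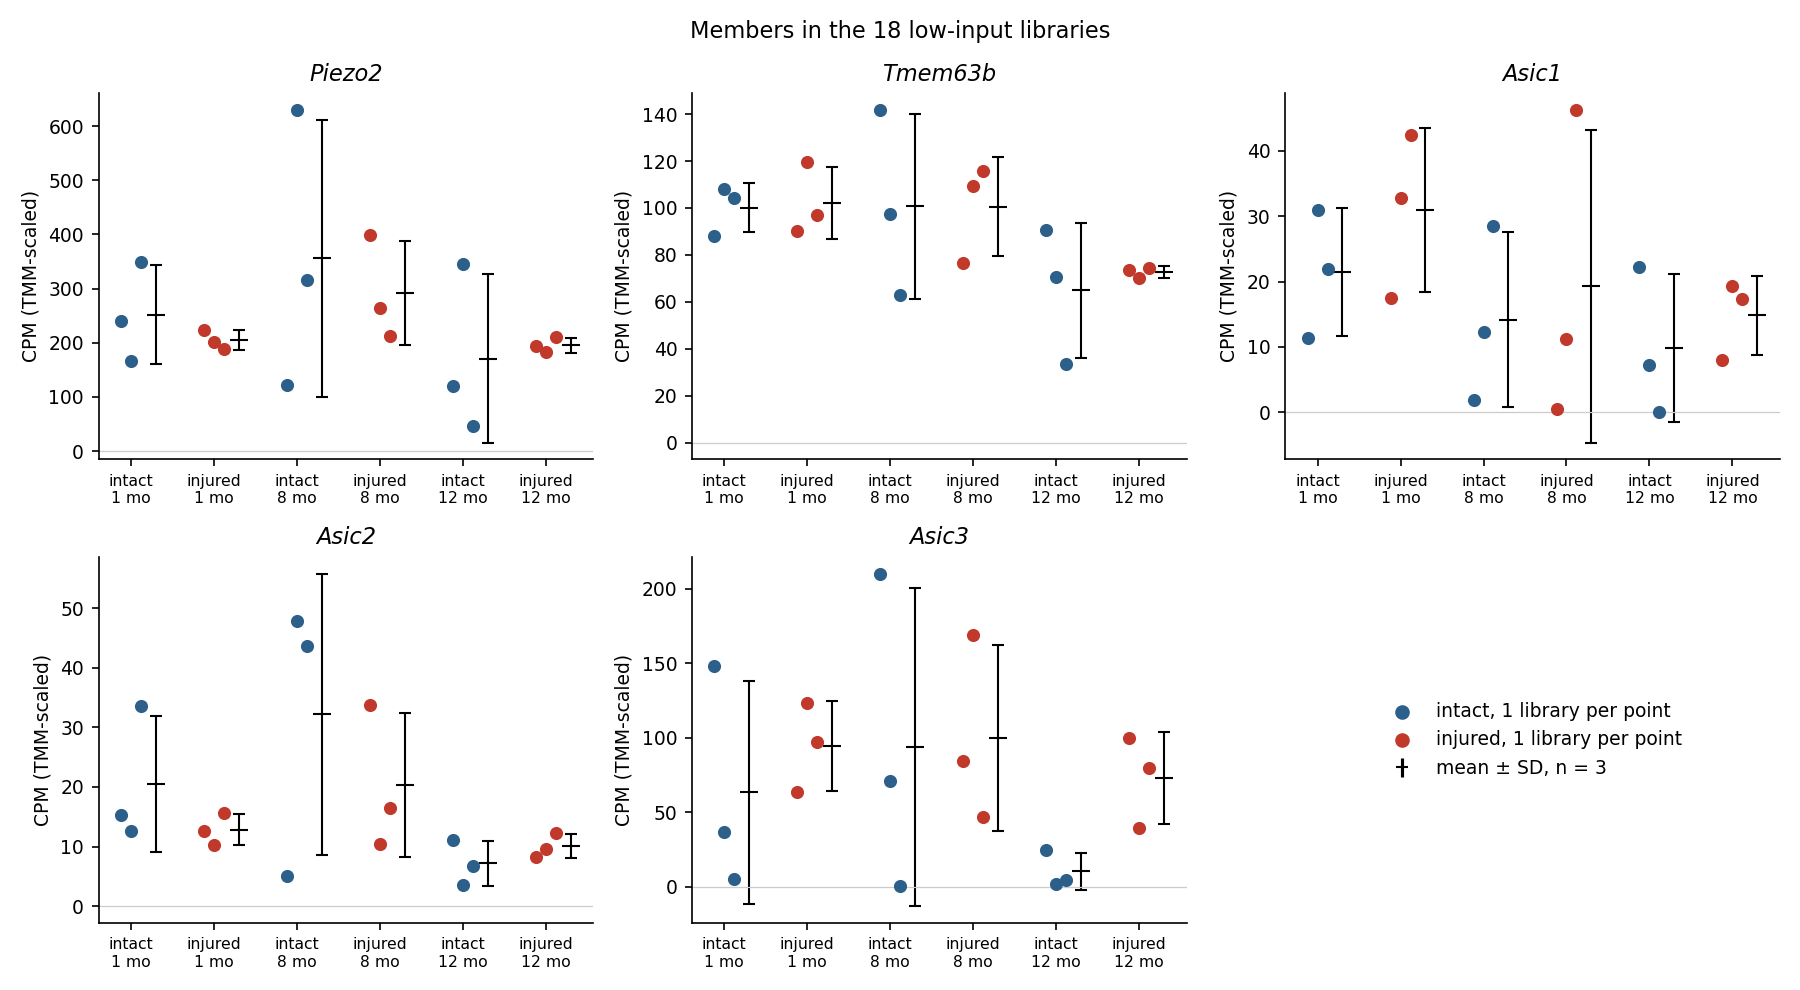
CPM (TMM-scaled, linear axes, each panel with its own scale) of the 5 tested members in each low-input library; blue points are intact and red points injured libraries, and black bars give the mean ± SD (n = 3). Asic3 at 12 months is the only panel position where the 3 injured libraries (39.1 to 99.7 CPM) lie above the 3 intact ones (1.81 to 24.5 CPM). The 1.81 CPM rest on 1 count.

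Levels of different genes were compared per length, as RPKM, the CPM divided by the summed exon length in kilobases, in the 18 low-input libraries. On that scale Asic3, the shortest gene, led with 29.9 ± 25.1 RPKM (SD, n = 18), followed by Tmem63b with 17.7 ± 4.90 and Piezo2 with 16.8 ± 8.93. Asic2 had 4.02 ± 3.10 and Asic1 3.21 ± 2.37 RPKM. Piezo1 (0.0266 ± 0.0293) and Asic4 (0.0206 ± 0.0541) were far lower. Neighbours in this order differed by less than the larger of their SDs, except for the step from Piezo2 to Asic2 and the step from Asic1 to Piezo1.

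Whether nerve injury changed these transcripts was tested with edgeR's quasi-likelihood test over all 14212 genes that passed the filter, with Benjamini-Hochberg adjustment. 5 of the 7 members could be tested. Averaged over the 3 ages, 0 of the 5 were called at an adjusted p below 0.05, where 6.18% of all genes were. Asic3 had the largest estimate, a log2 change (injured minus intact) of 1.09 ± 0.75 (SE; 95% interval −0.51 to 2.70; edgeR adjusted p = 0.455). Its mean was 89.2 ± 40 CPM with injury and 55.8 ± 75.1 CPM without (SD, n = 9 each). Asic1 followed with 0.49 ± 0.70 (−1.01 to 1.98; adjusted p = 0.758) and Asic2 with −0.34 ± 0.36 (−1.09 to 0.42; adjusted p = 0.651). Piezo2 had −0.12 ± 0.33 (−0.82 to 0.58; adjusted p = 0.892), so that a fold from 0.567 to 1.49 lies in its interval. Tmem63b had 0.07 ± 0.20 (−0.35 to 0.48; adjusted p = 0.901), an interval of 0.787-fold to 1.39-fold. The intervals of the ASIC genes are wider, and for Asic3 reach 6.49-fold. An unadjusted p below 0.05 was found for 0 of the 5 in edgeR and DESeq2, against 20.3% of all genes in edgeR. With limma-voom 0 were called and 1 had an unadjusted p below 0.05, namely Asic3 (log2 change 2.33 ± 1.08, p = 0.0457, adjusted p = 0.200).

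The same held at each age. At 1 month 0 of 5 members were called by edgeR, where 0.232% of all genes were, and the estimates ran from −0.67 ± 0.61 for Asic2 to 0.58 ± 1.28 for Asic3 on the log2 scale. At 8 months 0 of 5 were called, where 0.957% of all genes were, and the estimates ran from −0.67 ± 0.61 for Asic2 to 0.44 ± 1.21 for Asic1. At 12 months 0 of 5 were called, where 2.99% of all genes were. Asic3 came nearest, with a log2 change of 2.60 ± 1.39 (95% interval −0.37 to 5.57; edgeR p = 0.0815, adjusted p = 0.341). The dominant feature took 29.4% to 39.04% of the counts in the injured and 64.2% to 93.8% in the intact 12-month libraries, without overlap. With that share as a covariate the Asic3 change at 12 months was −0.26 ± 3.11, so its direction turned. DESeq2 gave it 2.76 ± 1.36 (p = 0.0424, adjusted p = 0.204). Without the second intact 12-month replicate, the library that stood apart, Asic3 at 12 months had 2.30 ± 1.65 and an adjusted p of 0.422, and Piezo2 at 12 months moved from 0.22 ± 0.58 (adjusted p = 0.887) to 1.22 ± 0.54 (adjusted p = 0.185). Leaving out intact replicate 1 at 12 months gave Asic3 4.24 ± 1.89 (adjusted p = 0.230). At 1 and 8 months 0 of 5 members had an unadjusted p below 0.05 in edgeR, DESeq2 or limma-voom, nor at 12 months in edgeR or limma-voom. The edgeR shares over all genes were 4.50%, 12.2% and 18.6%.

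**Figure D2:**
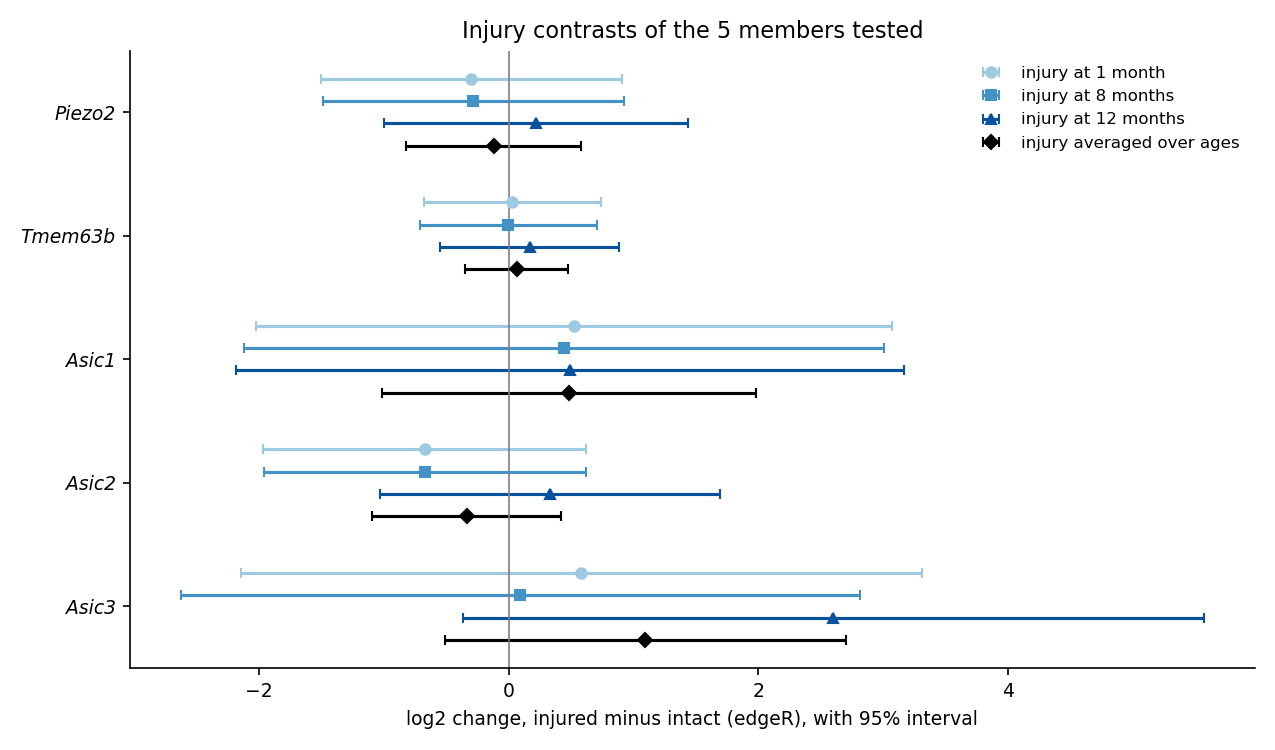
Log2 change, injured minus intact, of the 5 tested members from edgeR, with 95% intervals as bars, at 1, 8 and 12 months (blues) and averaged over ages (black diamonds). Every interval spans 0; the narrowest is that of Tmem63b averaged over ages (−0.35 to 0.48), and the Asic3 estimate at 12 months (2.60) lies farthest from 0.

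A call for Asic3 rested on the filter. When no genes were filtered beyond those without counts, edgeR called Asic3 in the averaged contrast (log2 change 1.11 ± 0.24, adjusted p = 0.000124), at 12 months (2.64 ± 0.43, adjusted p = 3.18e-07) and in the joint test of injury by age (adjusted p = 0.00404). That fit held 28520 genes, its estimates for Asic3 were close to those above, and its standard errors were smaller. The joint test of injury by age called 0 of 5 members in the filtered fit, where 0% of all genes were called, and 0 of 5 had an unadjusted p below 0.05 with edgeR (8.17% of all genes), DESeq2 or limma-voom. The smallest edgeR p was that of Asic3 (p = 0.391, adjusted p = 0.926). Scaling to the ERCC spike-ins raised the median log2 change of all genes by 2.90 in the averaged contrast and by 5.36 at 12 months, and called all 5 members there, as it did 13493 and 13675 of 14212 genes. Relative to that median, the 5 members lay between −0.71 (Asic2) and 1.27 (Asic3) in the averaged contrast.

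Age was compared within each condition. Over 1, 8 and 12 months in intact neurons 0 of 5 members were called, where 4.17% of all genes were. Asic2 had the smallest p (p = 0.0251, adjusted p = 0.157 in edgeR; DESeq2 adjusted p = 0.0774) and was the only member with an unadjusted p below 0.05 in edgeR, as were 22.6% of all genes. Without intact replicate 1 at 8 months its adjusted p was 0.0310. In injured neurons 0 of 5 were called, where 0.218% of all genes were, and 0 had an unadjusted p below 0.05 in edgeR (4.60% of all genes), DESeq2 or limma-voom. Between single ages in intact neurons, 0 of 5 members were called from 1 to 8 months (0.922% of all genes), from 1 to 12 months (0.246%) and from 8 to 12 months (6.69%). In injured neurons the same 3 comparisons called 0 of 5 against 0.225%, 0.113% and 0.0633% of all genes. Over these 6 comparisons Asic2 from 8 to 12 months in intact neurons was the 1 edgeR result of a member with an unadjusted p below 0.05. The shares over all genes at that threshold were 16.2%, 10.7% and 25.3% in intact and 4.99%, 3.86% and 4.29% in injured neurons.

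For every tested member except Asic1, the largest of the 6 pairwise age estimates was that from 8 to 12 months in intact neurons. Over this step the summed nociceptor markers also differed without overlap, with 4508, 4642 and 2327 CPM at 8 months and 831, 235 and 893 CPM at 12 months. Counts outside the dominant feature were 3956440 to 4574940 at 8 and 770328 to 4763857 at 12 months. The part of these differences in the values below was not tested. Asic2 averaged 32.2 ± 23.6 CPM at 8 months and 7.16 ± 3.78 CPM at 12 months (SD, n = 3). Its log2 change was −2.01 ± 0.66 (95% interval −3.41 to −0.61; edgeR p = 0.00744, adjusted p = 0.0741). DESeq2 called it with an adjusted p of 0.0252, and so did edgeR without the first intact 8-month replicate (−2.50, adjusted p = 0.0146), which stood at 5.05 CPM; limma-voom gave −1.35 (adjusted p = 0.394). Asic3 had −2.96 ± 1.41 (edgeR adjusted p = 0.204), and without intact replicate 3 at 8 months, at 0.164 CPM, −3.53 ± 1.06 (adjusted p = 0.0490). Piezo2 had −1.09 ± 0.58 (adjusted p = 0.256), and without the second intact 12-month replicate −2.08 ± 0.57 (adjusted p = 0.0256). Among the edgeR fits with 1 library left out, each of these 3 genes passed the threshold in 1 fit, and the library left out was a different one for each. Without the filter on low counts edgeR called Asic2 (−2.02, adjusted p = 0.00177) and Asic3 (−2.97, adjusted p = 5.13e-09) here. With ERCC scaling it called Asic2 (−4.40, adjusted p = 0.0467) and Piezo2 (−4.52, adjusted p = 0.0429). Tmem63b had −0.64 ± 0.34 (adjusted p = 0.256) and Asic1 −0.43 ± 1.26 (adjusted p = 0.877).

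Levels of other cell types in the libraries are given beside these results, and their part in them was not tested. The summed CPM of 8 satellite glia markers (such as Fabp7 and Apoe) was 115 to 2038 in injured and 48.02 to 748 in intact libraries. The 6 Schwann cell markers summed to 311 to 549.7 and 205 to 866 CPM, and the 8 immune markers to 1.88 to 10.3 and 0 to 7.22 CPM. The highest intact immune sum was that of the library that stood apart, and the next was 1.5 CPM, so that without it the ranges did not overlap. The 7 endothelial markers, which bear on Piezo1, summed to 6.69 to 25.1 CPM with injury and 0.657 to 46.6 CPM without, and the 6 fibroblast markers to 18.6 to 63.7 and 0 to 74.05 CPM. The highest intact fibroblast sum came from that same library, and the next was 16.7 CPM, below every injured library. Neuron subtypes were uneven too: 11 nociceptor markers summed to 497 to 2943 CPM with injury and 235 to 4642 CPM without, and 11 markers of large myelinated neurons to 1037 to 4056 and 1419 to 17540 CPM. The 17540 CPM were again in the library that stood apart, and the next highest intact value was 4409 CPM. In such pooled libraries fewer cells of a type and less RNA per cell cannot be told apart.

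The members followed different neuron markers from library to library. Pearson's r of log2 CPM was taken over the 18 libraries for 42 markers. For Asic2 it was highest with P2rx3 (0.85), an ATP receptor, and Scn11a (0.82), a sodium channel, both of nociceptors. The lowest r of Asic2 was with Cntnap2 (−0.49). P2rx3 stood at 1.96, 625.3 and 385.2 CPM in the intact 8-month replicates, in which Asic2 stood at 5.05, 47.9 and 43.6 CPM. Asic1 was highest with Kcnc1 (0.87) and Runx3 (0.78), markers of large myelinated neurons. Asic3 had 0.76 with Tubb3, a general neuron marker, and 0.73 with Calca, which encodes CGRP. Piezo2 reached at most 0.57, with Scn10a, and Tmem63b 0.63, with Isl1. These correlations are descriptions over libraries that share depth and composition, and these markers were named after their values were seen.

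Between members the correlations were mostly low. Piezo2 and Asic2 had r = 0.60, Asic1 and Tmem63b 0.55 and Asic3 and Tmem63b 0.55, whereas Asic3 had −0.02 with Piezo2, 0.04 with Asic1 and −0.15 with Asic2. No pair of ASIC genes exceeded 0.24 (Asic1 with Asic2).

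The 3 genes nearest to each tested member were found by the same correlation over 18 libraries among all genes tested. For Asic3 they were Gap43 (r = 0.95), which encodes a growth cone protein, C1qtnf1 (0.94) and Gpr149 (0.94). Gap43 had 88.3, 14.4 and 24.1 CPM in the intact 12-month libraries and 577, 593 and 428 CPM in the injured ones. It reached 584 and 601 CPM in the first intact replicates at 1 and 8 months, the same 2 libraries in which intact Asic3 was highest. For Asic1 they were Kcnk1 (0.91), a background potassium channel that is also among the acid-related genes listed, Slit2 (0.91), an axon guidance ligand, and Sulf2 (0.90). For Piezo2 they were Ptprg (0.96), a receptor tyrosine phosphatase, Zfp523 (0.95) and Wiz (0.95). Asic2 had Trim25 (0.94), Filip1 (0.92) and Rasip1 (0.90). Tmem63b had Sgms2 (0.91), a sphingomyelin synthase, Adcy1 (0.89), an adenylyl cyclase, and Fitm2 (0.89). The highest of so many correlations is large for any gene, so these values rank likeness only.

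**Figure D3:**
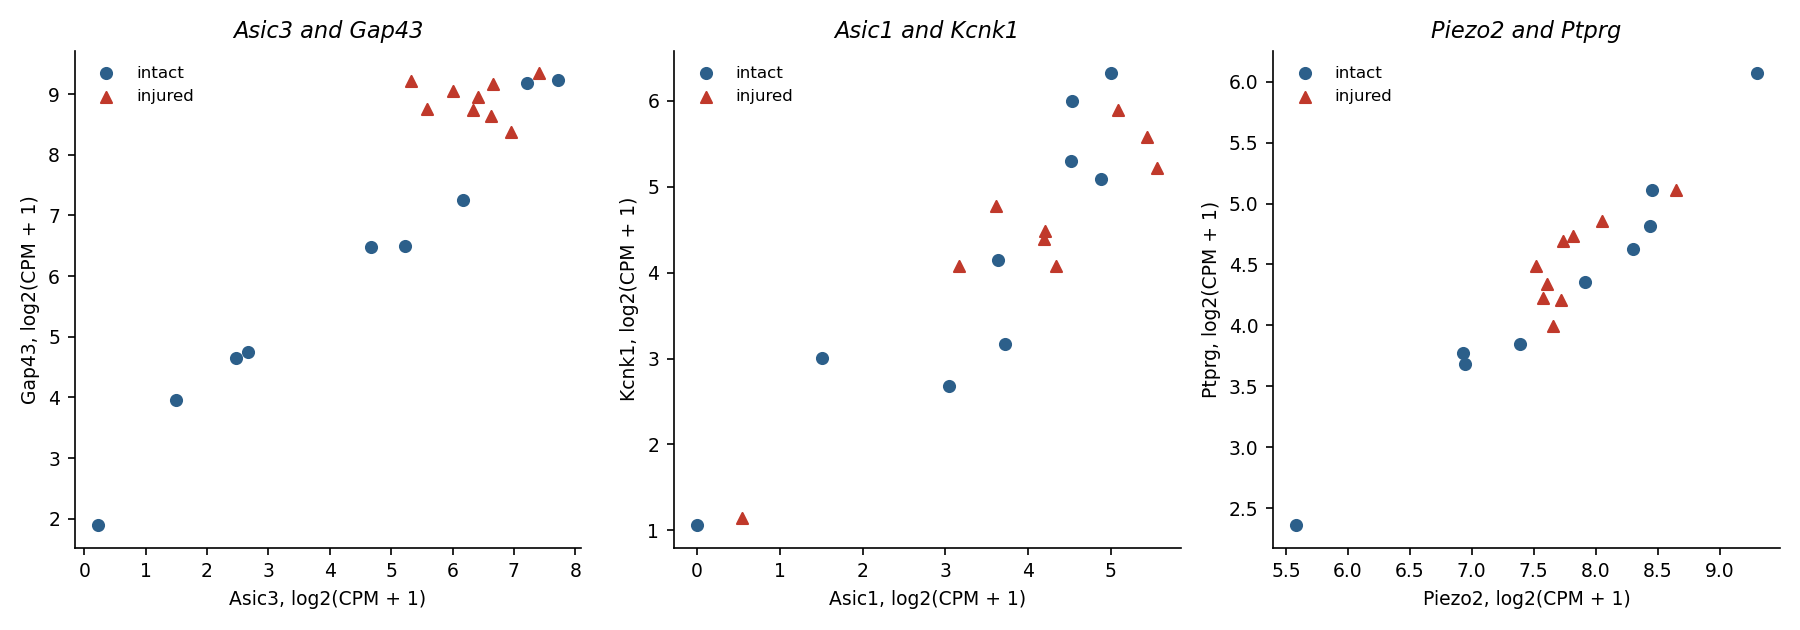
Levels of 3 members against their nearest gene in the 18 low-input libraries, both axes as log2(CPM + 1); blue circles are intact and red triangles injured libraries. Intact libraries spread along the whole line of Asic3 against Gap43, while all 9 injured libraries lie at its upper end.

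Genes that work beside these channels were taken from 2 lists. Of 22 mechanosensing genes 17 were tested, and 1 was called in the averaged injury contrast, higher in injured neurons, where 5.11% of all genes were called higher. The median log2 change of the list was 0.10, that of all genes tested 0.03. The gene was Cdh23, which encodes the cadherin of hair cell tip links. It was very low: 102 counts in the 9 injured libraries, with counts in 8 of them, and 3 counts in the intact ones, all in 1 library, a ratio of 28.2 after scaling (exact 95% counting interval 9.38 to 139). Its edgeR log2 change was 5.01 ± 0.99 (adjusted p = 0.00868), and the call was lost in 2 of 25 alternatives. With the replicate number blocked the edgeR change was 4.865 and the adjusted p 0.0697, above the threshold. With the dominant feature's share as a covariate they were 3.62 and 0.380. At 12 months 1 of 17 was called, where 2.19% of all genes were called higher: the Tmem63b paralogue Tmem63c, named after its values were seen. It had 34.2, 12.6 and 4.13 CPM without and 70.9, 81.7 and 68.7 CPM with injury (log2 change 2.05 ± 0.50, adjusted p = 0.0357), while Tmem63b had 0.17 ± 0.34 there (adjusted p = 0.848). The intact values of Tmem63c rest on 399, 7 and 19 counts, in libraries where the dominant feature took 64.2% to 93.8%. How its call fared under the alternatives is not given here.

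Of 21 genes for acid sensing and for ASIC partners 13 were tested, and 3 were called lower in injured neurons and 0 higher, where 1.07% of all genes were called lower. The median log2 change of the list was 0.27, opposite in sign to these 3. All 3 encode PDZ scaffolds. The list also holds Pick1 and Slc9a3r1, which encode PDZ proteins too and were not called. Magi1 fell by 0.96 on the log2 scale (SE 0.20, edgeR adjusted p = 0.00824). Its mean was 74.6 ± 28.9 CPM without and 38.6 ± 18.5 CPM with injury (SD, n = 9). Lin7b, which binds Asic3, fell by 1.02 (SE 0.26, adjusted p = 0.0279), and Dlg4, which encodes PSD-95, fell by 0.74 (SE 0.21, adjusted p = 0.0482). With the replicate number as a block the adjusted p was 0.0830 for Magi1, 0.108 for Lin7b and 0.187 for Dlg4, so all 3 calls were lost, with log2 changes of −0.97, −0.97 and −0.67. With the dominant feature's share as a covariate the changes were −0.24, −2.07 and −0.09 (adjusted p = 0.833, 0.137 and 0.974). Dlg4 lost its call in 18 of 25 alternatives and Lin7b in 8. At single ages 0 of 13 were called by edgeR.

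Single cells show how the channels are distributed over neurons. Of the 69 cells, 55 held at least 100000 counts outside the dominant feature and were used (at 1 month 17 injured and 12 intact, at 1 year 18 injured and 8 intact). No animal is named, so each group is 1 sample, and no difference between groups of cells was tested. Intervals of shares treat cells as independent draws, and those of summed counts cover counting error only. Neither kind covers the spread between animals. CPM in cells is of counts outside the dominant feature. Of the 55 cells 50 had all 8 neuron markers at 1 CPM or more. The 2 cells that had only 1 and 2 of these markers, 1 injured and 1 intact at 1 month, were also the 2 without a count of any of the 7 members.

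Piezo2 was present in nearly every cell. It reached 1 CPM in 53 of 55 cells (96.4%; exact Clopper-Pearson 95% interval 87.5% to 99.6%) and 10 CPM in 52, with a median of 314 and a maximum of 2301 CPM. Tmem63b reached 1 CPM in 50 of 55 (90.9%; 80.1% to 97.0%), all 50 also above 10 CPM, with a median of 160.5 CPM. In 49 cells both were at 10 CPM or more. Piezo1 reached 1 CPM in 5 cells and 10 CPM in 1, an injured cell at 1 year with 16.7 CPM. It had no count in the 12 intact cells at 1 month, which allows up to 25% of such cells to have one and says nothing of cells that express it. Among all 18 intact 1-month cells with counts, 1 reached 1 CPM.

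The ASIC genes divided the cells instead. At 10 CPM or more Asic1 was found in 25 of 55 cells (45.5%), Asic2 in 34 (61.8%) and Asic3 in 31 (56.4%), while Asic4 was found in 0. It had no count in the 17 injured 1-month cells, which allows up to 17.6% of such cells to have one, again not a limit on expression. Asic4 reached 1 CPM in 4 cells, at most 2.40 CPM. Where an ASIC gene was on it was often abundant: the maxima were 431.5 CPM for Asic1, 209 for Asic2 and 669 for Asic3. In 17 cells Asic1, in 9 Asic2 and in 10 Asic3 had no count at all. Each cell with Asic2 or Asic3 at 10 CPM also had Piezo2 at that level, as did 24 of the 25 with Asic1.

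The cell names carry a letter, S, M, L or ML, which the labels do not explain, and 10 of the used cells, among them the 8 intact cells at 1 year, carry none. Markers of small-diameter nociceptors followed it. The median level of Scn10a was 1166 CPM in the 13 S cells, 5.50 in the 18 M cells and 117 in the 12 L cells, and that of P2rx3 431, 3.72 and 3.70 CPM. Nefh, the neurofilament of large neurons, had medians of 215 CPM in S, 845 in M and 1386 in L cells. Median depth outside the dominant feature was 3572000 counts in S, 1384000 in M and 4029000 in L cells. The 2 cells with few neuron markers and no count of any member were both M cells, and they enter the M medians and shares below as 0.

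By the median and by the share of cells at 10 CPM, Asic2 was the highest ASIC gene of the S cells. It had a median of 93.2 CPM there, against 1.22 in M and 9.04 in L cells, and reached 10 CPM in 11 of 13 S cells (84.6%; interval 54.6% to 98.1%), 5 of 18 M cells (27.8%; 9.70% to 53.5%) and 6 of 12 L cells. Within groups the S median was also the highest: 93.2 CPM against 3.83 (M) and 7.13 (L) in injured cells at 1 month, 93.4 against 8.73 and 15.5 in injured cells at 1 year, and 28.8 against 0 and 4.92 in intact cells at 1 month. There were only 3 intact S cells at 1 month, and 1 intact M cell of that age reached 136.5 CPM. The summed counts gave 63.2 CPM of Asic2 in S, 25.4 in M and 18.3 in L cells. Asic3 was above Asic2 by that measure in S cells, with 110 CPM. In intact cells at 1 month the summed counts gave 19.2 CPM of Asic2 in S and 83.96 in M cells, while in both injured groups S was highest.

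For Asic1 the S cells were lowest, not highest. Its median was 0 CPM in S, 1.55 in M and 90.7 in L cells, and it reached 10 CPM in 2 of 13 S cells (15.4%; 1.92% to 45.5%), 7 of 18 M and 8 of 12 L cells (66.7%; 34.9% to 90.1%). The summed counts gave 2.94 CPM in S cells (exact Poisson interval 2.48 to 3.47) and 111 CPM in L cells (108 to 114). In injured cells at 1 year the M median, 56.7 CPM, was above the L median of 15.7, so the order of M and L was not the same in each group. No M or L median was below that of S in any of the 3 groups with letters, though in injured cells at 1 month S and M were both at 0.

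Asic3 was also more frequent outside the S cells, with 10 CPM reached in 4 of 13 S cells (30.8%; 9.09% to 61.4%), 11 of 18 M (61.1%) and 9 of 12 L cells (75%; 42.8% to 94.5%), and medians of 1.23, 55.98 and 121 CPM. The intervals of S and L overlap. In intact cells at 1 month the order was absent, with 1 of 3 S, 3 of 6 M and 1 of 3 L cells at 10 CPM. The highest S cell, an intact one at 1 month, had 655 CPM.

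Piezo2 and Tmem63b varied less with the letter. Piezo2 had medians of 445 CPM in S, 260 in M and 172 in L cells, and was at 10 CPM or more in 13 of 13, 16 of 18 and 11 of 12. The S median was above the L median in both injured groups (431.5 against 143 CPM at 1 month, 611.5 against 279.6 at 1 year) and not in intact cells at 1 month (143.1 against 148). Tmem63b had medians of 144, 141 and 175 CPM.

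**Figure D4:**
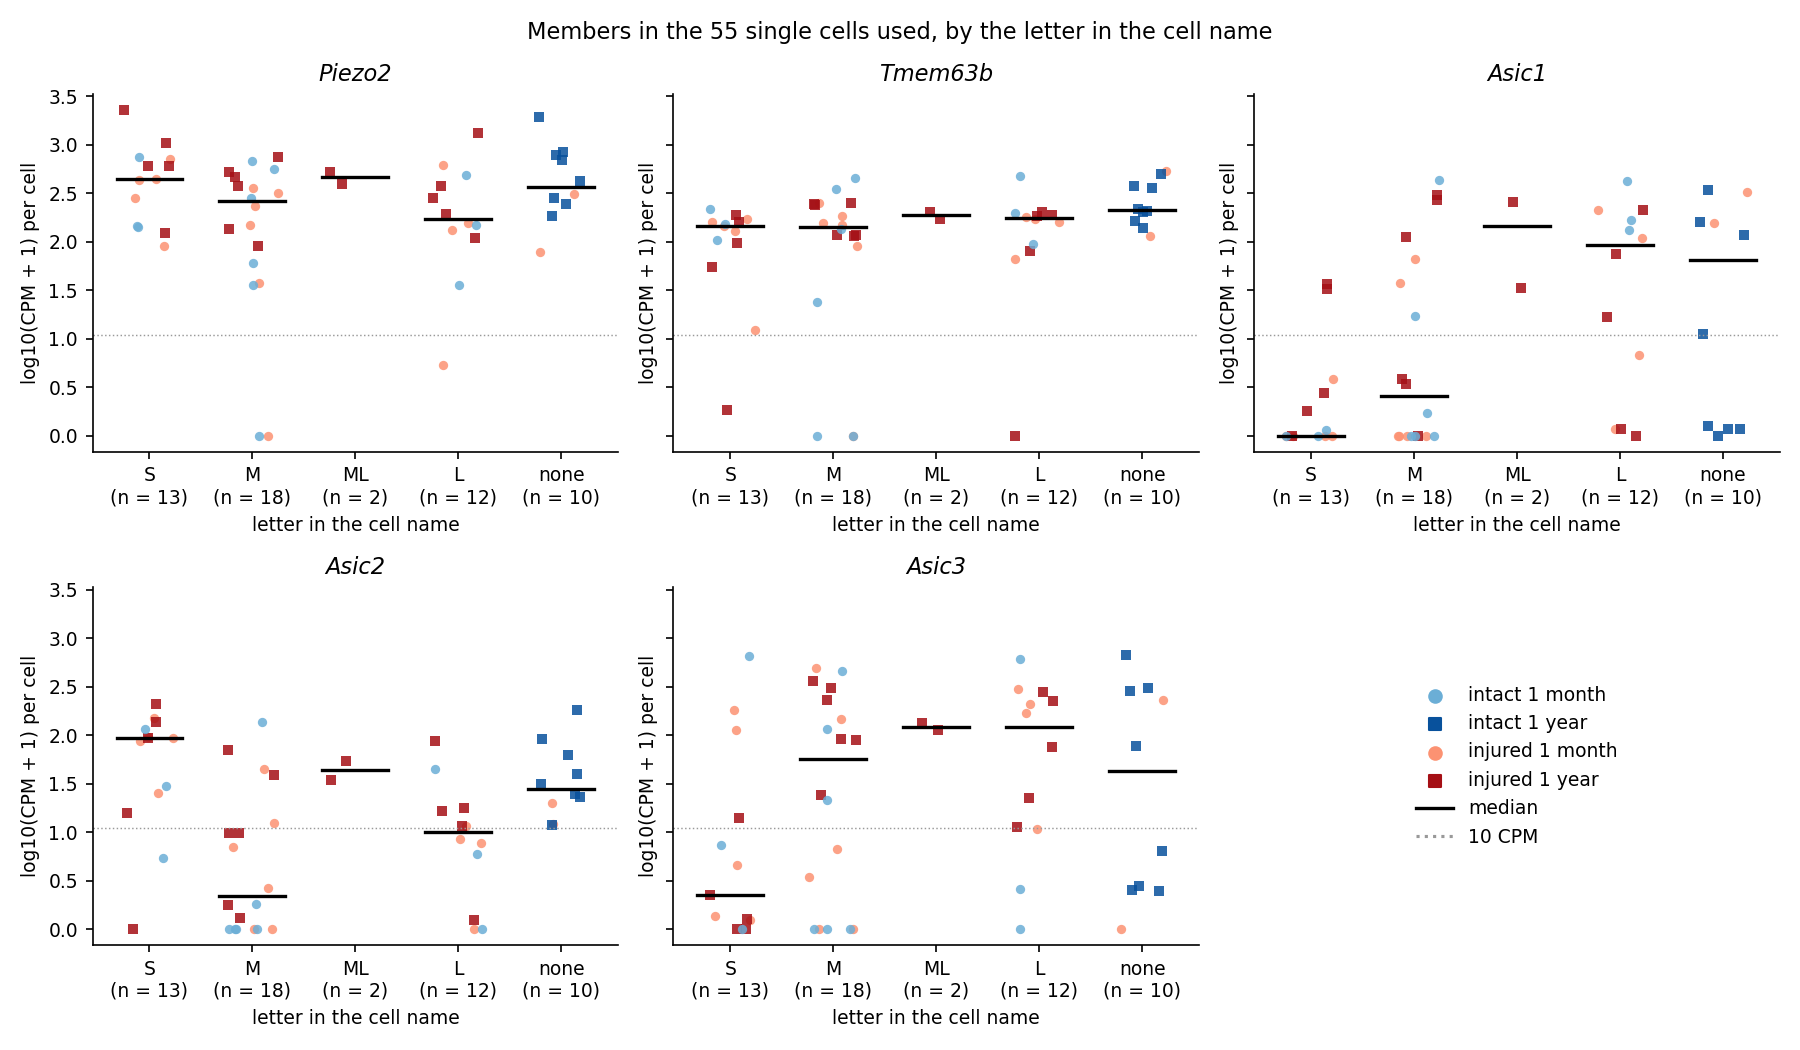
Level of 5 members per single cell, as log10(CPM + 1), by the letter in the cell name (n = 13 S, 18 M, 2 ML, 12 L, 10 without a letter); colours and symbols give the group, black lines the median, the dotted line 10 CPM. Piezo2 and Tmem63b lie in a high band with few cells below it, while Asic1, Asic2 and Asic3 run from 0 up to 431.5, 209 and 669 CPM, with the median of Asic2 highest and that of Asic1 lowest in S.

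ASIC channels are trimers of like or mixed subunits, so the genes were also counted in combination. At 10 CPM 10 of 55 cells had Asic1, Asic2 and Asic3 together, 9 had Asic2 with Asic3, 7 Asic1 with Asic2, and 5 Asic1 with Asic3. A single one of the 3 was found in 18 cells: Asic2 in 8, Asic3 in 7 and Asic1 in 3. None was found in 6 cells, which include the 2 with few neuron markers. Of the 8 cells with Asic2 alone 6 were S cells and 0 were M or L, and the 7 with Asic3 alone were 4 M and 3 L cells. At 1 CPM, a threshold that lets in traces, 20 cells had all 3 genes and 4 none.

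**Figure D5:**
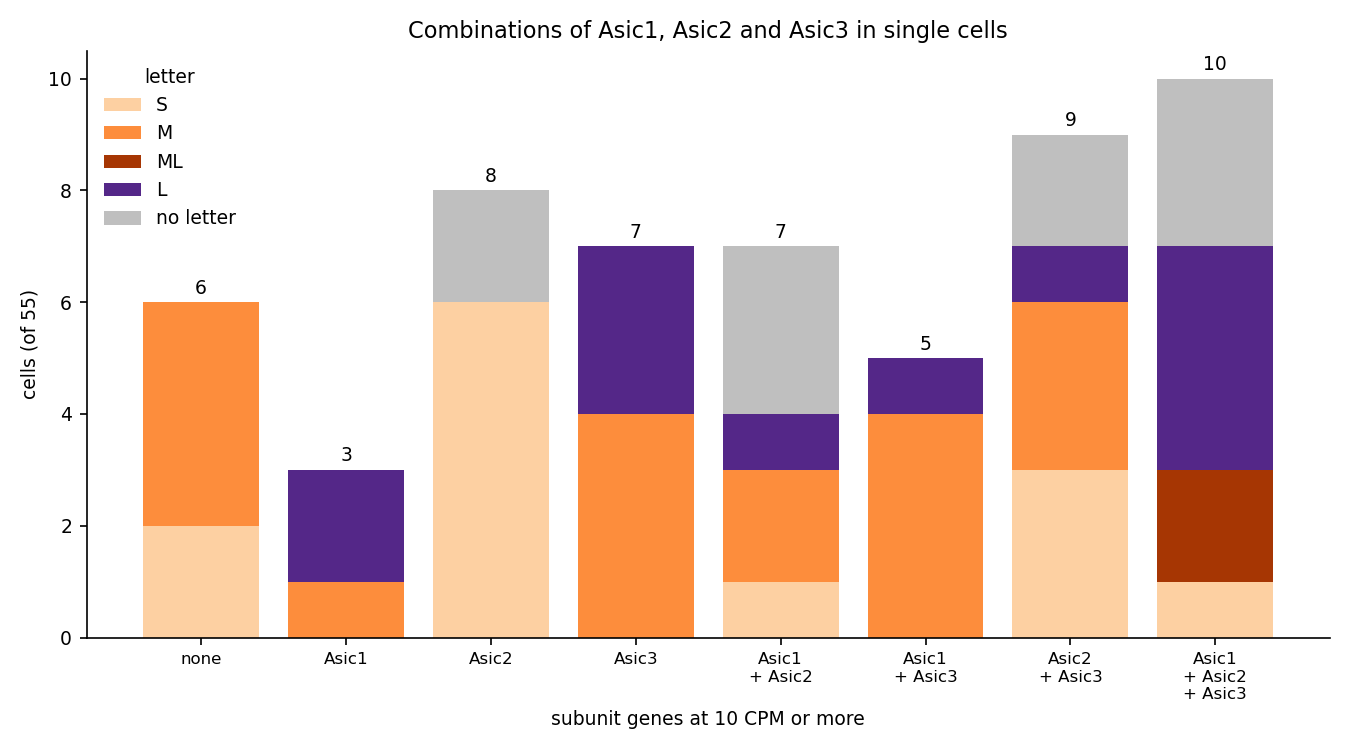
Number of single cells (of 55) with each combination of Asic1, Asic2 and Asic3 at 10 CPM or more, stacked by the letter in the cell name. Cells with Asic2 alone are 6 S cells and 2 without a letter, and the largest class, 10 cells, has all 3 genes.

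Cells with and without each ASIC gene differed in markers that had been listed for neuron types, given here as medians chosen after they were seen. Cells with Asic2 at 10 CPM or more had 809 CPM of Scn10a against 10.8 in the other 21, and 85.5 against 2.86 CPM of P2rx3. They also had more Nefh, a marker of large neurons (1386 against 778 CPM), though not within injured cells at 1 month (876 against 954 CPM). The Scn10a difference had the same direction in the 3 groups that held both kinds of cell: 1039 against 2.67 CPM (injured, 1 month), 864 against 109.7 (injured, 1 year) and 1884 against 14.6 (intact, 1 month). Cells with Asic1 had more Etv1, a transcription factor of proprioceptors (36.6 against 1.30 CPM), and less Scn11a (3.16 against 149 CPM). Scn11a was lower with Asic1 in all 4 groups. Cells with Asic3 had more Calca (4598 against 282 CPM), which was higher with Asic3 in each of the 4 groups, and more Nefh (1589 against 618 CPM). Over the low-input libraries r was 0.85 for Asic2 with P2rx3, 0.68 for Asic2 with Scn10a and 0.73 for Asic3 with Calca. It was 0.36 for Asic1 with Etv1, −0.02 for Asic1 with Scn11a, −0.43 for Asic2 with Nefh and −0.11 for Asic3 with Nefh.

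Across the 4 groups of cells levels are given without a test. The 6 axotomy genes, which separated the low-input conditions, overlapped in cells: their summed level had a median of 114 CPM (3.27 to 16140) in injured and 44.2 CPM (0 to 1290) in intact cells at 1 month, and of 78.3 CPM (0.84 to 2947) and 53.6 CPM (11.8 to 282) at 1 year. Pooled levels weigh deep cells more and are set beside the median over cells, injured before intact. Piezo2 had 280.5 and 293 CPM pooled and medians of 236 and 146 CPM at 1 month, and 474 and 601 CPM pooled and medians of 428 and 559 CPM at 1 year. Tmem63b had 163 and 236 CPM pooled and medians of 153.9 and 144.5 CPM at 1 month, and 170.5 and 291 CPM pooled and medians of 166 and 212 CPM at 1 year. For both genes the order of the conditions at 1 month was not the same by the pooled level and by the median.

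Asic1 had 43.3 and 125 CPM pooled and medians of 0.167 and 0.418 CPM at 1 month. At 1 year it had 74.3 and 107 CPM pooled and medians of 23.7 and 5.17 CPM, in the opposite order. Asic2 had 36.02 and 36.7 CPM pooled and medians of 11.2 and 2.60 CPM at 1 month, and 34.9 and 48.4 CPM pooled and medians of 16.2 and 34.9 CPM at 1 year. Asic3 was lower in injured cells by the pooled level, with 148 and 247 CPM at 1 month and 121.5 and 203 CPM at 1 year. Its median over cells was higher in them, 9.82 and 3.96 CPM at 1 month and 82.1 and 41.3 CPM at 1 year, as was the share of cells at 10 CPM, 47.1% and 41.7% at 1 month and 77.8% and 50% at 1 year. Median depth was lowest in intact cells at 1 month (1556000 counts) and highest in intact cells at 1 year (7145000).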

How the data were processed

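The authors' deposited table holds read counts (whole numbers) per gene for 87 columns, 18 low-input libraries and 69 single cells. Per the file headers these counts were made with featureCounts 1.5.2 on paired-end reads over exons, by gene name, unstranded, with the GENCODE M16 annotation, and the summed exon Length column is also as deposited. The submitters' processing notes name Trim Galore, STAR and mm10 without versions. Of 230 samples, 136 are RNA samples and 94 methylation samples, which were not analysed here. For 45 names more than 1 RNA sample was deposited, and the table has 1 column per name. The 92 ERCC spike-ins were left out of library sizes.

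The low-input counts were tested with edgeR 4.0.16 (filterByExpr, TMM, robust quasi-likelihood, 6 group means, 12 residual degrees of freedom, common BCV 0.543) in R 4.3.3, with Benjamini-Hochberg adjustment over 14212 genes and a threshold of 0.05. DESeq2 1.42.0, limma-voom (limma 3.58.1), RLE scaling, ERCC scaling, no filter, a replicate block, a covariate for how many counts the dominant feature took, only the libraries compared, and leaving out each library were alternatives. The fit of the averaged injury contrast was also run on simulated counts, and the outcome is not reported here. Correlations used log2 CPM with a prior count of 2.

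The members and gene lists were chosen with earlier results of these data known. Named were all members, every gene of the 2 companion lists called in the averaged injury contrast (otherwise the 3 with the smallest p), and the 3 genes nearest to each tested member. Same-numbered libraries deviated together at 1 month (r = 0.109, 0.371 and 0.328 over 2365 genes). The main fit used no pairing at any age, and the replicate block was set at 1, 8 and 12 months alike. At 8 months r was −0.432, −0.241 and −0.0159, and at 12 months −0.0852, −0.0614 and 0.0783. Cells needed 100000 counts outside the dominant feature. Doublets were not called; neurons were isolated manually, per the labels' protocols. Intervals are 95%. Those of log2 changes rest on the spread between libraries. Intervals of shares, and the limit of 3 counts behind a value of 0, treat cells as independent draws. Intervals of summed counts cover counting error only. A few marker results are not reported here.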

Additional observations from a re-analysis of the deposited data

Results flagged for a closer look

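In the 8 intact cells at 1 year, 1 cell lay far above the other 7 for 4 of the 7 genes, by Dixon's test at the 95% level, and it was a different cell for each gene. The highest Piezo1 value was 4.125 CPM (next highest 1.47), that of Piezo2 1928 CPM (next 834), that of Asic1 341.9 CPM (next 159) and that of Asic3 668.6 CPM (next 306). Chance flags about 1 in 20 such groups only where values are normally distributed, and 7 were examined. That distribution was not tested for the CPM of these cells, which for Asic3 ran from 1.493 to 668.6. The 4 flags therefore cannot be compared with that rate.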

How the results depend on the processing

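Values are counts of members called or log2 changes, injured minus intact. Of 155 member values under other settings, 117 kept direction and side of the threshold, 28 reversed, and 10 newly passed it in the same direction. The 28 were counted by direction alone and include values that also newly passed the threshold. Of 360 values with 1 library left out, 329 kept both and 31 reversed. ERCC scaling called 5 members in the averaged contrast, 5 at 12 months, 5 for age within intact and 7 over pairs of ages; it reversed Piezo2 (averaged 2.71, 1 month 1.15, 8 months 0.814), Asic2 (2.19, 0.721, 0.415) and Tmem63b at 8 months (2.17). No filter called 1 member averaged, 1 at 12 months, 1 for injury by age, 2 for age within intact and 3 over pairs of ages, with Tmem63b at 8 months at 0.0221. DESeq2 called 1 over pairs of ages. Limma-voom reversed Piezo2 averaged (0.238), and at 8 months Asic1 (−0.284) and Tmem63b (0.0576). The replicate block reversed the same values (Piezo2 0.109, Asic1 −0.266, Tmem63b 0.0555) and changed no call of a member. The dominant-feature share as a covariate gave, averaged, Piezo2 1.05, Asic1 −2.78, Asic3 −0.444 and Tmem63b −0.435; at 1 month Piezo2 0.0378, Asic1 −0.290 and Tmem63b −0.107; at 8 months Piezo2 0.556, Asic1 −3.25 and Asic3 −1.13; and at 12 months Asic1 −4.79, Asic3 −0.258 and Tmem63b −0.787. Only the libraries compared gave Tmem63b 0.00251 at 8 months. The cause of these reversals was not tested.

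With 1 library left out, 0 to 1 members were called for age within intact and 0 to 1 over pairs of ages. Averaged, Piezo2 ran from −0.268 to 0.214, Asic1 from −0.0815 to 1.503 and Tmem63b from −0.0393 to 0.190. At 1 month Piezo2 ran from −0.524 to 0.0121 and Tmem63b from −0.0979 to 0.113. At 8 months Piezo2 ran from −0.691 to 0.419, Asic1 from −1.27 to 1.46, Asic3 from −0.510 to 1.503 and Tmem63b from −0.245 to 0.329. At 12 months Piezo2 ran from −0.224 to 1.22, Asic1 from −0.149 to 3.54 and Tmem63b from −0.150 to 0.537. The remaining values kept their direction. Averaged, Asic2 ran from −0.529 to −0.147 and Asic3 from 0.8935 to 1.64. At 1 month Asic1 ran from 0.217 to 0.886, Asic2 from −0.929 to −0.1155 and Asic3 from 0.0401 to 2.155. At 8 months Asic2 ran from −1.25 to −0.266. At 12 months Asic2 ran from 0.157 to 0.799 and Asic3 from 2.19 to 4.24.

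Of 168 shares of cells at 1 CPM, 17 left the exact 95% interval of the main share, which is wide: Piezo1 in intact 1-year cells stayed inside it at 62.5% with 1 count, from 25%. At 10 CPM the share was 0% for Piezo1 in intact 1-year cells and for Asic4 in injured 1-year, intact 1-month and intact 1-year cells, and 50% for Asic3 in intact 1-year cells. With 1 count it was 87.5% for Asic1 in intact and 94.4% for Asic2 in injured 1-year cells. Thinned to 200000 counts, Piezo2 was at 100% in both 1-month groups, Tmem63b at 100% in injured 1-month cells, Asic3 at 50% in intact and Asic4 at 0% in injured 1-year cells. With CPM of all endogenous counts, Asic3 was at 62.5% in intact and Asic4 at 0% in injured 1-year cells. Among cells with at least 3 neuron markers, chosen after seeing the data, Piezo2 was at 100% in both 1-month groups and Tmem63b at 100% in injured 1-month cells.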
